A study of Mus musculus with 15 samples.

Results

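The beta-catenin destruction complex was described here as 10 genes in RNA sequencing of mouse small intestinal organoids, which are self-renewing cultures grown from intestinal crypts. With earlier results of these data known, the genes were chosen by name and not by any measured value. They were taken through their Ensembl identifiers in the deposited count table and FPKM table. They were the scaffolds Apc, Apc2, Axin1 and Amer1, the kinases Csnk1a1, Gsk3a and Gsk3b, the turnover genes Btrc and Tnks, and the substrate Ctnnb1, which encodes beta-catenin itself. All 10 were found among 43629 genes in the count table.

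The 13 libraries compared were of polyA RNA from organoids on a mixed C57B6/129 background, with no age given. WT comprised 5 libraries grown in ENR medium, which holds EGF, Noggin and R-spondin. Of these, 4 were Apc flox/flox lines numbered 1, 2, 5 and 6, and 1 was a dox-naive culture without induction of Cas9. Apc was represented by 4 Apc delta/delta libraries that carry the same line numbers in their titles, and P-Rspo3 comprised 4 libraries, labelled 15d, 4d, M and F, with the Ptprk-Rspo3 inversion. Apc and P-Rspo3 were both grown in EN medium, without R-spondin, so genotype and medium cannot be told apart in a comparison of either with WT. P-Rspo3 cultures came from mice carrying R26-rtTA and a doxycycline-regulated Cas9 with its guides, were polyclonal, and were selected by growth without R-spondin. Only the dox-naive library shares that transgenic origin among WT, and no Apc library is labelled with it. The labels do not say whether libraries 15d, 4d, M and F were of separate cultures, so p-values measure the spread between these samples, which may be partly technical.

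In the absence of a Wnt ligand, Apc and Axin1 hold beta-catenin beside casein kinase 1 alpha and glycogen synthase kinase 3, which phosphorylate it in turn. The phosphorylated protein is recognised by beta-TrCP, the product of Btrc, and is degraded by the proteasome. In the intestine this step limits Wnt signalling to the crypt base, and loss of Apc, which stabilises beta-catenin, is the usual first event in colorectal tumours. Much of the regulation acts on proteins, which were not measured here, so the values that follow describe transcripts only.

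Total counts were 28902729 to 35528495 in the 13 grouped libraries. Rspo3, the gene activated by the inversion, had 539 to 1079 counts in P-Rspo3, 7 to 57 in Apc and 0 to 1 in WT. The defining markers of epithelium were present in every group (summed FPKM, a read level per transcript length and library size, of 1733 to 2240 over 6 genes). Against WT, Krt18 was higher in Apc and Vil1, Krt19, Krt8 and Epcam were lower by the test given below. Cdx2 did not pass it, and Krt8 and Epcam overlapped in FPKM between WT and Apc. The groups did differ in the epithelial types they held. The 6 enterocyte markers had summed FPKM of 2877 to 7766 in WT, 1907 to 4609 in P-Rspo3 and 25.04 to 53.8 in Apc. Of the 4 crypt stem cell markers, Lgr5, Ascl2 and Smoc2 were higher in Apc and Olfm4 was lower, against WT. The 3 Paneth cell markers summed to 5286 to 8413 FPKM in WT, 2978 to 6388 in P-Rspo3 and 514 to 1451 in Apc, where Defa24 and Lyz1 were lower and Mmp7 was higher than in WT. The 4 enteroendocrine markers summed to 121 to 200.05 FPKM in WT, 63.2 to 175 in P-Rspo3 and 8.13 to 18.8 in Apc. Markers of cells outside the epithelium were low but also moved with Apc. For the 4 immune markers, Apc libraries summed to 3.65 to 10.1 FPKM, against 0.763 to 1.42 for WT and 0.685 to 1.14 for P-Rspo3. This rise was that of Cd68, the only 1 of the 4 tested. Ptprc went the other way, with mean FPKM of 0.0037 for Apc, 0.109 for WT and 0.067 for P-Rspo3. It had at most 24 counts, and its WT and Apc libraries overlapped. Cd3e and Cd79a had at most 2 counts. The 3 endothelial markers summed to 0.278 to 0.365 FPKM in WT, 0.122 to 0.474 in P-Rspo3 and 1.17 to 2.04 in Apc, where Cdh5, at 0 in every WT and P-Rspo3 library, was higher, Pecam1 was lower than in WT and Kdr was at 0. The 5 fibroblast markers summed to at most 0.311 FPKM in Apc, where Pdgfra was higher and Dcn was at 0, against at most 0.0388 in WT and 0.0459 in P-Rspo3. The 5 markers of neurons and glia summed to 0.880 to 1.44 FPKM in WT, 0.745 to 1.35 in P-Rspo3 and 1.15 to 2.14 in Apc, and the 3 of smooth muscle to at most 0.0663. These differences move with every comparison of Apc given here, and their part in the results was not tested. In bulk RNA, fewer cells of a type and less RNA per cell cannot be told apart.

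Counts were compared with edgeR's quasi-likelihood test and Benjamini-Hochberg adjustment over all genes tested, and a gene was called at an adjusted p under 0.05. Levels are given as FPKM and differences as log2 fold changes (log2FC) of counts normalized by TMM, which sets most genes to no change. This scaling mattered for Apc. The TMM factors were 0.909 to 0.967 in WT and 1.127 to 1.172 in Apc, and scaling by total counts in its place moved the median log2FC of all genes from 0.0006 to 0.29. Of 16749 genes tested, 30.0% were called higher and 29.0% lower in Apc than in WT with TMM, and 45.1% and 19.7% with total counts. Statements on direction below are therefore relative to the typical gene, and members whose direction depended on the scaling are named.

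Per length, the substrate was the most abundant transcript of the complex in all 3 groups. In WT, mean FPKM was 293 ± 7.18 for Ctnnb1, 142 ± 7.60 for Csnk1a1, 38.2 ± 2.91 for Gsk3a, 31.9 ± 9.22 for Axin1 and 19.9 ± 2.04 for Gsk3b (SD, n = 5). It was 14.5 ± 4.47 for Apc, 6.84 ± 0.852 for Tnks, 2.02 ± 0.310 for Amer1 and 1.63 ± 0.0715 for Btrc. Neighbours in this order overlapped between libraries for Gsk3a and Axin1 and for Gsk3b and Apc, and the other neighbours were separate. The order was the same in P-Rspo3, with the same overlaps. In Apc it changed at 1 place, where the Apc transcript, at 28.3 to 30.5 FPKM, lay above Gsk3b, at 21.97 to 25.7 FPKM.

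**Figure D1:**
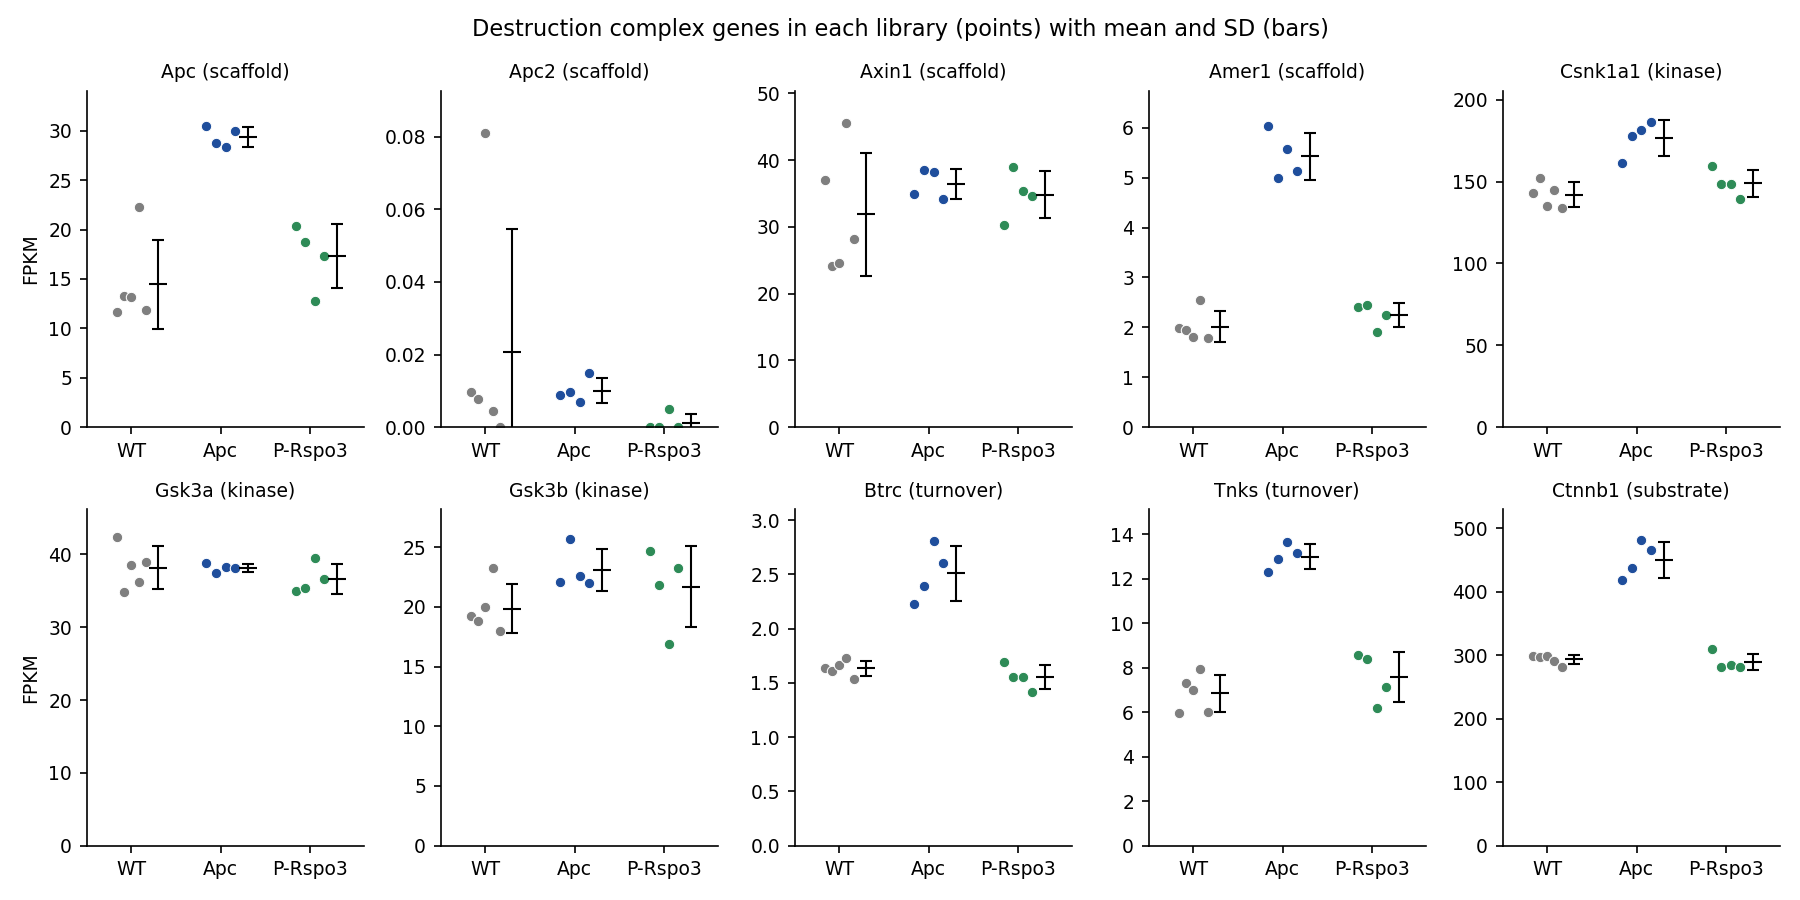
FPKM (vertical axes, each from 0) of the 10 members in each library (points) of WT, Apc and P-Rspo3, with the mean and SD of the group to the right of the points; SD bars that would pass below 0 are cut there. Apc, Amer1, Csnk1a1, Btrc, Tnks and Ctnnb1 were higher in the 4 Apc libraries than in every WT library, as were 37.9% of all genes tested, and WT and P-Rspo3 overlapped in all 10 genes.

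The first comparison asked how transcripts of the complex differed between organoids with and without Apc deletion. Of the 9 members tested, 5 were higher in Apc than in WT, namely Amer1, Apc, Tnks, Btrc and Ctnnb1, against a background of 30.0% of all genes called higher. Gsk3a was lower, against 29.0% of all genes called lower. Gsk3b, Csnk1a1 and Axin1 did not pass the test. The median log2FC was 0.29 over these members and 0.0006 over all genes. Apc2 was not tested in this fit, because it failed the filter on low FPKM. With 59.1% of all genes called in one direction or the other, 6 of 9 is close to the background, and a call by itself is not particular to the complex.

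Apc encodes the large scaffold that is deleted in the Apc group. The gene-level signal for Apc did not fall after the deletion. Its counts were 4628, 4386, 4171 and 6810 in WT lines 1, 2, 5 and 6 and 4046 in the dox-naive library. They were 10953, 9265, 9777 and 10535 in the Apc libraries of lines 1, 2, 5 and 6. The 4 Apc libraries all lay above the 5 WT libraries, and WT line 6 stood above the other WT libraries. In FPKM the means were 29.4 ± 1.03 (SD, n = 4) in Apc and 14.5 ± 4.47 (SD, n = 5) in WT. With TMM, Apc was higher in Apc than in WT by a log2FC of 0.69 (SE 0.093, edgeR's quasi-likelihood test, adjusted p = 8.64e-05). By line number, the ratio of TMM-normalized counts of the deleted to the flox/flox library was 1.84 in line 1, 1.66 in line 2, 1.64 in line 5 and 1.26 in line 6. That the 2 libraries of a number are of 1 line rests on their titles. The Y-linked gene Eif2s3y differed within 2 of the numbers, at 8.23 in WT and 76.3 in Apc for line 1 and at 40.3 and 86.5 for line 2 (TMM-normalized counts scaled as CPM). It was 102 and 92.3 for line 5 and 0 in both libraries of line 6. The part of this difference in the ratios was not tested. Without WT line 6 the log2FC was 0.77 (edgeR's quasi-likelihood test, adjusted p = 3.11e-06).

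A gene-level count can miss the deletion of a short exon in this gene. The Apc gene spans chr18:34220924-34322552 on the plus strand (GRCm38), and no other annotated gene shares its exons. Its principal transcript in the GENCODE annotation has 16 exons and 12811 bases. Exon 16 holds 10548 bases, or 82.3% of the transcript. Each of the other 15 exons holds 0.609% to 2.96%, and the longest of them, exon 10, has 379 bases. With reads spread evenly over the transcript, loss of all reads from exon 10 would move the gene-level log2 count by -0.043, which is less than the SE of the measured log2FC. Which exon or exons were floxed is not given in the sources used here, and counts per exon were not analysed here. The gene-level counts are thus no check on loss of one of the 15 shorter exons, and they do not measure intact Apc transcript. They show that RNA counted to the locus was more abundant in all 4 deleted libraries than in the flox/flox libraries of the same number, on the TMM scale (1.26 to 1.84 times) and in FPKM (1.34 to 2.63 times).

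**Figure D2:**
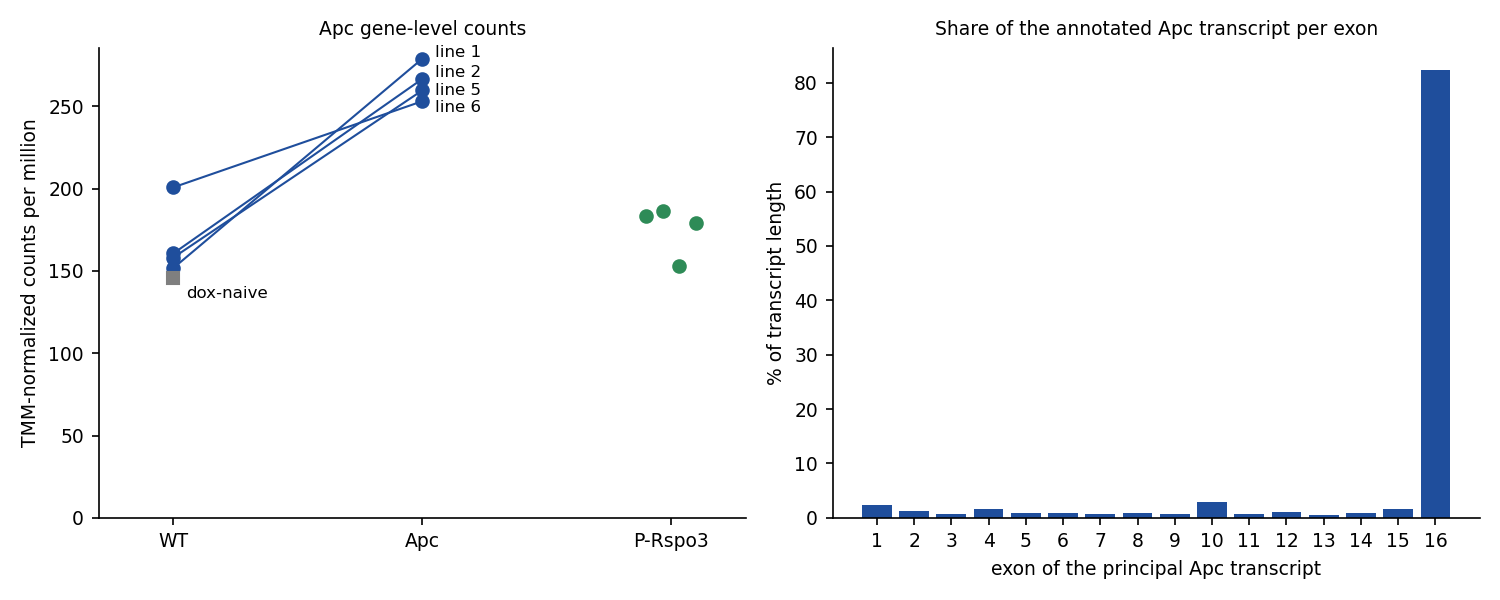
Left, TMM-normalized counts scaled to library size (CPM, from 0) of the Apc gene in each library; lines join the WT and Apc libraries of the same line number, the square is the dox-naive WT library, and the points at the right are P-Rspo3. The value rose from WT to Apc in all 4 lines, least in line 6. Right, the share of the annotated Apc transcript length in each exon, of which exon 16 holds 82.3%.

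Amer1, an X-linked gene whose product recruits APC to the plasma membrane, had the largest difference among the members. Its FPKM was 1.99, 1.94, 1.81, 2.55 and 1.79 in WT lines 1, 2, 5 and 6 and the dox-naive library. It was 6.03, 4.995, 5.57 and 5.13 in Apc lines 1, 2, 5 and 6. All Apc libraries lay above all WT libraries, and WT line 6 was again the highest of its group. The log2FC was 1.15 (SE 0.10, edgeR's quasi-likelihood test, adjusted p = 3.91e-06), and with TMM Amer1 was the only member past a 2-fold difference, as were 12.2% of all genes in this direction. Mean FPKM of Apc also differed by 2.04-fold. Xist, the X-linked RNA of female cells, had FPKM of 117 in WT line 6, 287 in Apc line 6 and 24.6 in the dox-naive library, and at most 0.287 in the other WT and Apc libraries. The ratio of normalized counts for Amer1 was smallest in line 6, at 1.68, against 2.15 to 2.58 in lines 1, 2 and 5. Among the autosomal members called higher, line 6 had the smallest ratio for Apc (1.26) and Tnks (1.40) and the largest for Ctnnb1 (1.31). For Btrc it had 1.26, against 1.17 to 1.28 in lines 1, 2 and 5. The part of sex in these values was not tested.

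Axin1, the scaffold that binds the kinases and is usually regarded as limiting for the complex, ranged from 24.1 to 45.6 FPKM in WT, the widest spread of any tested member relative to its mean except that of Apc. In Apc it ranged from 34.2 to 38.6 FPKM, inside the WT range. The log2FC was -0.07 with a 95% interval of -0.26 to 0.11 (edgeR's quasi-likelihood test, adjusted p = 0.486), and it was 0.22 with total-count scaling. The ratio of deleted to flox/flox library was above 1 in 2 of 4 lines and below 1 in the other two.

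Apc2, a related scaffold mainly of nervous tissue, was at the limit of detection throughout. It had 1 to 4 counts in WT, 4 to 7 in Apc and 0 to 2 in P-Rspo3. In the Apc libraries the Apc transcript was 2009 to 4114 times as abundant as Apc2 in FPKM. Apc2 failed the FPKM filter of the main fits and entered the alternative without that filter. With so few counts, its values are given as levels only.

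Of the kinases, Csnk1a1 primes beta-catenin for phosphorylation and Gsk3a and Gsk3b complete it. Csnk1a1 had FPKM of 134 to 152 in WT and 161 to 186 in Apc, ranges that did not touch. Its normalized counts overlapped, and its log2FC was 0.01 (95% interval -0.14 to 0.17, edgeR's quasi-likelihood test, adjusted p = 0.912) with TMM and 0.30 with total counts, which is near the shift of all genes. Gsk3b had FPKM of 18.0 to 23.3 in WT and 21.97 to 25.7 in Apc, and a log2FC of -0.01 (95% interval -0.17 to 0.15, edgeR's quasi-likelihood test, adjusted p = 0.937) with TMM and 0.28 with total counts.

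Gsk3a had 2549, 1883, 2043 and 2352 counts in WT lines 1, 2, 5 and 6 and 2096 in the dox-naive library, and 2428, 2199, 2306 and 2525 in Apc lines 1, 2, 5 and 6. After TMM normalization the groups separated, at 68.9 to 83.6 in WT and 60.6 to 63.3 in Apc (normalized counts scaled as CPM), and 25.0% of all genes lay below WT in every Apc library in the same way. The log2FC was -0.29 (SE 0.066, edgeR's quasi-likelihood test, adjusted p = 0.00335), and Gsk3a was lower in 4 of 4 lines. In FPKM the groups overlapped, at 38.1 ± 0.589 (SD, n = 4) in Apc and 38.2 ± 2.91 (SD, n = 5) in WT, and with total counts the log2FC was 0.008. Gsk3a was thus lower relative to the typical gene, but not in FPKM or with total counts. Of its exonic bases, 28.28% are also covered by 9130221H12Rik on the opposite strand, which had at most 163 counts in any library; the strand setting of the counting is not given in the sources used here.

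Tnks, which encodes tankyrase 1, an enzyme that marks axin for degradation, had FPKM of 5.96, 7.32, 6.98 and 7.93 in WT lines 1, 2, 5 and 6 and 6.01 in the dox-naive library. It had 12.3, 12.9, 13.6 and 13.2 in Apc lines 1, 2, 5 and 6. The groups were well apart, and the ratio of normalized counts was above 1 in 4 of 4 lines, from 1.40 to 1.72. The log2FC was 0.64 (SE 0.084, edgeR's quasi-likelihood test, adjusted p = 7.13e-05).

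Btrc encodes the F-box protein that recognises phosphorylated beta-catenin. Its FPKM was 1.64, 1.61, 1.67 and 1.73 in WT lines 1, 2, 5 and 6 and 1.54 in the dox-naive library, and 2.23, 2.396, 2.80 and 2.61 in Apc lines 1, 2, 5 and 6. All Apc libraries were above all WT libraries, with a log2FC of 0.32 (SE 0.092, edgeR's quasi-likelihood test, adjusted p = 0.0111). The ratio of normalized counts was 1.17 to 1.28 over the 4 lines.

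Ctnnb1 itself had FPKM of 298, 297.5, 298 and 291 in WT lines 1, 2, 5 and 6 and 282 in the dox-naive library. It had 418, 436, 480 and 465 in Apc lines 1, 2, 5 and 6. WT libraries were tightly grouped and all Apc libraries lay above them. The log2FC was 0.29 (SE 0.071, edgeR's quasi-likelihood test, adjusted p = 0.00469), higher in 4 of 4 lines with ratios of normalized counts of 1.15 to 1.31, and 0.59 with total counts. Ulk4 on the opposite strand covers 14.62% of its exonic bases, with at most 82 counts.

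**Figure D3:**
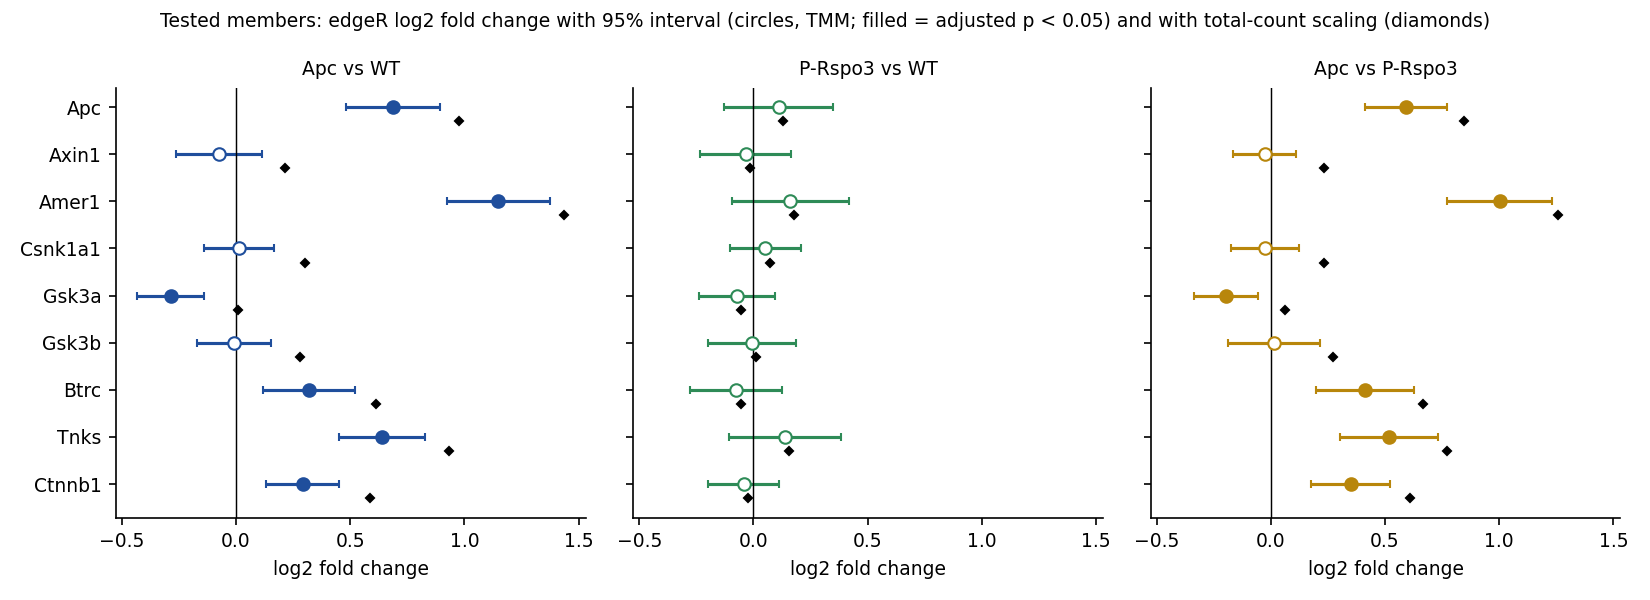
Log2 fold change (horizontal axis) of the 9 tested members in the 3 comparisons, with the 95% interval (circles; filled where the adjusted p was under 0.05) after TMM normalization, and the value with total-count scaling (diamonds). Against either group, Amer1, Apc, Tnks, Btrc and Ctnnb1 were higher in Apc under both scalings and Gsk3a was lower with TMM only; no member passed the test in P-Rspo3 against WT.

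The second comparison asked whether the Ptprk-Rspo3 inversion moved the same transcripts. None of the 9 tested members passed edgeR's quasi-likelihood test in P-Rspo3 against WT, in either direction, and none had an unadjusted p under 0.05. Of 15992 genes tested, 0.00625% were called, which is Rspo3 alone, and 2159 had an unadjusted p under 0.05. DESeq2 called 204 genes higher and 304 lower but also 0 members. The smallest unadjusted p among the members was 0.188, for Amer1, and adjusted p ranged from 0.58 to 0.996 in edgeR's test. P-Rspo3 and WT libraries overlapped in all 10 members, where 2.06% of all genes tested lay above and 2.08% below WT in every P-Rspo3 library in FPKM.

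The log2FC ranged from -0.08 for Btrc to 0.16 for Amer1, with a median of -0.008, and the 95% intervals of the 9 members all lay between -0.28 and 0.42. For Ctnnb1 the interval was -0.20 to 0.11, and for Axin1 it was -0.23 to 0.17. Apc had FPKM of 20.4, 18.7, 12.8 and 17.3 in P-Rspo3 libraries 15d, 4d, M and F, of which 15d, 4d and F were above the WT libraries other than line 6. Its log2FC was 0.11 with an interval of -0.13 to 0.35. Ctnnb1 had 309, 282, 284 and 282 FPKM in the same order, so that library 15d was apart from the others in FPKM. In TMM-normalized counts scaled as CPM, Ctnnb1 had 1000.4, 1003.3, 1015.8 and 1050.5, and library 15d was not apart. The comparison shares the WT libraries with the first.

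The third comparison set Apc against P-Rspo3, which were grown in the same EN medium. No Apc library is labelled with the transgenic Cas9 origin of P-Rspo3. Genotype and origin of the line therefore cannot be told apart in this comparison. The same 5 members as against WT were higher in Apc, against 28.7% of all genes called higher, and Gsk3a was lower, against 27.7% called lower and 56.4% in either direction. The log2FC was 1.00 (SE 0.10) for Amer1, 0.59 (SE 0.079) for Apc and 0.52 (SE 0.094) for Tnks, and with TMM Amer1 alone was past 2-fold, as were 13.4% of all genes in this direction. The value for Amer1 lies at that limit, with a 95% interval of 0.77 to 1.23 and a range of 0.93 to 1.26 over the alternatives, and was under 1 in 4 of them. It was 0.41 (SE 0.095) for Btrc, 0.35 (SE 0.076) for Ctnnb1 and -0.20 (SE 0.062) for Gsk3a. Adjusted p in edgeR's quasi-likelihood test ranged from 3.47e-05 for Amer1 to 0.0222 for Gsk3a. In FPKM, 7 members were above every P-Rspo3 library in all 4 Apc libraries, as were 38.0% of all genes tested. These were Amer1, Apc, Tnks, Btrc, Ctnnb1, Csnk1a1 and Apc2. Csnk1a1 overlapped in normalized counts, and Apc2, which was not among the genes tested, had at most 7 counts. Gsk3a lay below every P-Rspo3 library in normalized counts, as did 26.4% of all genes. The call for Gsk3a was lost without Apc line 5 (adjusted p = 0.0605) or without Apc line 6 (adjusted p = 0.0591) in edgeR's test, and its direction turned with total counts (log2FC 0.06). With total counts, 41.9% of all genes were called higher and 19.3% lower. This comparison uses the same Apc libraries as the first, so it is not independent of it.

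Related genes outside the 10 members show which copy of each function was the more abundant. Axin2, the Wnt-induced partner of Axin1, was level with Axin1 in WT, at 0.842 to 1.40 times its FPKM. In Apc it was 4.09 to 5.04 times as abundant as Axin1, and in P-Rspo3 it was 0.581 to 1.16 times. The sum of axin transcripts in Apc was thus mostly Axin2, whereas neither prevailed throughout WT or P-Rspo3. Axin2 had FPKM of 31.2, 33.8, 24.7, 51.6 and 28.9 in WT lines 1, 2, 5 and 6 and the dox-naive library and 148, 167, 156 and 173 in Apc lines 1, 2, 5 and 6. WT line 6 was again the highest WT library, and the groups were far apart (log2FC 1.97, SE 0.16, edgeR's quasi-likelihood test, adjusted p = 2.56e-06).

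For the other pairs, the more abundant copy was the same in every library. Fbxw11, which encodes the second beta-TrCP protein, had 13.7 to 18.6 times the FPKM of Btrc over all 13 libraries. It did not pass the test in Apc against WT with TMM (log2FC 0.11, edgeR's quasi-likelihood test, adjusted p = 0.113). With total counts it was called higher (log2FC 0.40, edgeR's quasi-likelihood test, adjusted p = 7.72e-05). Its FPKM was 24.5 to 25.9 in WT and 31.2 to 38.2 in Apc. Tnks2, the second tankyrase, had 4.97 to 6.87 times the FPKM of Tnks in WT and 7.54 to 8.20 times in Apc, and rose together with it (log2FC 0.94, SE 0.068, edgeR's quasi-likelihood test, adjusted p = 9.85e-07). Gsk3a had 1.42 to 2.33 times the FPKM of Gsk3b over all libraries. Csnk1a1 had 1.83 to 2.50 times that of Csnk1d. Amer1 had 14.0 to 62.6 times that of Amer2, which had at most 32 counts, and Amer3 had no counts in any grouped library.

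**Figure D4:**
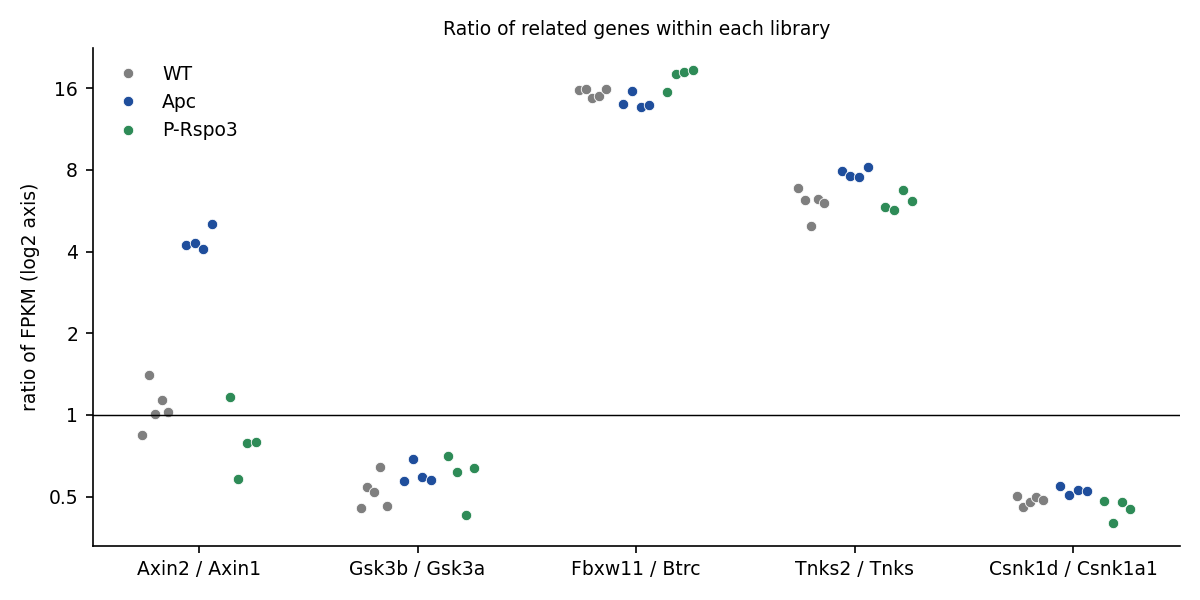
Ratio of FPKM between related genes within each library (log2 vertical axis; line at 1), with points for WT, Apc and P-Rspo3 libraries. Axin2 over Axin1 was 4.09 to 5.04 in Apc and 0.581 to 1.40 in the other groups, whereas the ratios of Gsk3b to Gsk3a, Fbxw11 to Btrc, Tnks2 to Tnks and Csnk1d to Csnk1a1 stayed on the same side of 1 in all 3 groups.

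A wider list of 32 genes of beta-catenin phosphorylation and turnover, of which 30 were tested, moved in both directions in Apc against WT with TMM. There were 12 higher, 9 lower and 9 that did not pass edgeR's quasi-likelihood test, with a median log2FC of 0.12. With total counts there were 21 higher, 4 lower and 5 that did not pass, with a median of 0.41. The values that follow are with TMM. The 4 genes lower under both scalings were Frat1, Frat2, Ppp2r5b and Ppp2r5c, whereas the lower calls of Csnk1g3, Siah1a, Dvl1, Ppp2r5a and Ppp2r5d were lost with total counts. Among the other casein kinase 1 genes, Csnk1e (log2FC 1.40), Csnk1g1 (0.33) and Csnk1d (0.16) were higher, Csnk1g3 (-0.44) was lower, and Csnk1g2 did not pass. Csnk1e, whose product phosphorylates Dishevelled in the Wnt receptor response, went from 13.7 to 19.1 FPKM in WT to 49.4 to 60.9 in Apc. The subunits of the ubiquitin ligase that Btrc joins included Skp1a (0.82) and Rbx1 (0.30) among the genes that were higher, whereas Cul1 (0.09) passed only with total counts (0.38). Siah1a (-0.42), from a ligase that acts on beta-catenin by another route, was lower, though its near copy Siah1b may share its reads.

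Protein phosphatase 2A, which removes phosphate from components of the complex, was divided by subunit with TMM. Its scaffold subunits Ppp2r1b (log2FC 0.61) and Ppp2r1a (0.36) were higher, its catalytic subunits Ppp2ca (-0.004) and Ppp2cb (0.10) did not pass, and 4 of its 5 B56 regulatory subunits were lower. These were Ppp2r5b (-1.23), Ppp2r5c (-0.63), Ppp2r5d (-0.38) and Ppp2r5a (-0.31), while Ppp2r5e (0.22) was higher. With total counts both catalytic subunits were higher (0.29 and 0.39), Ppp2r5b (-0.93) and Ppp2r5c (-0.33) were still lower, and Ppp2r5d (-0.083) and Ppp2r5a (-0.018) did not pass. In FPKM, Ppp2r5a, Ppp2r5c and Ppp2r5d overlapped between WT and Apc. Frat2 (-1.38) and Frat1 (-0.98), which encode proteins that bind glycogen synthase kinase 3 and keep it from axin, were lower, as was Dvl1 (-0.34, and -0.046 without a call with total counts), whereas Dvl2 (0.48) and Gskip (0.29) were higher. Frat2 had FPKM of 7.23 to 8.96 in WT, 5.02 to 7.96 in P-Rspo3 and 3.21 to 4.39 in Apc. Frat1 overlapped between WT (0.894 to 1.16 FPKM) and Apc (0.526 to 1.04 FPKM), and had at most 52 counts.

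Of the 5 genes for partners of beta-catenin at the cell junction and elsewhere, Ctnnd1 (log2FC 0.32), Cdh1 (0.24) and Ctnna1 (0.15) were the higher ones in Apc against WT with TMM, and Jup and Ctnnbip1 did not pass edgeR's test. Jup (0.16) passed with total counts. In P-Rspo3 against WT, 0 of 30 genes of turnover and 0 of 5 partners passed it under either scaling, with medians of 0.001 and -0.067 with TMM. In Apc against P-Rspo3, 12 genes of turnover were higher and 7 lower with TMM, and the same 3 partners were higher. With total counts 20 were higher and 5 lower, and all 5 partners were higher. These lists were drawn up with results of these data known, and their counts in Apc against WT stand beside the 30.0% and 29.0% of all genes that were called with TMM, and the 45.1% and 19.7% with total counts. In Apc against P-Rspo3, 28.7% of all genes were called higher and 27.7% lower with TMM, and 41.9% and 19.3% with total counts. In P-Rspo3 against WT, only 0.00625% of all genes were called under either scaling, so the lack of calls is not particular to these lists.

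**Figure D5:**
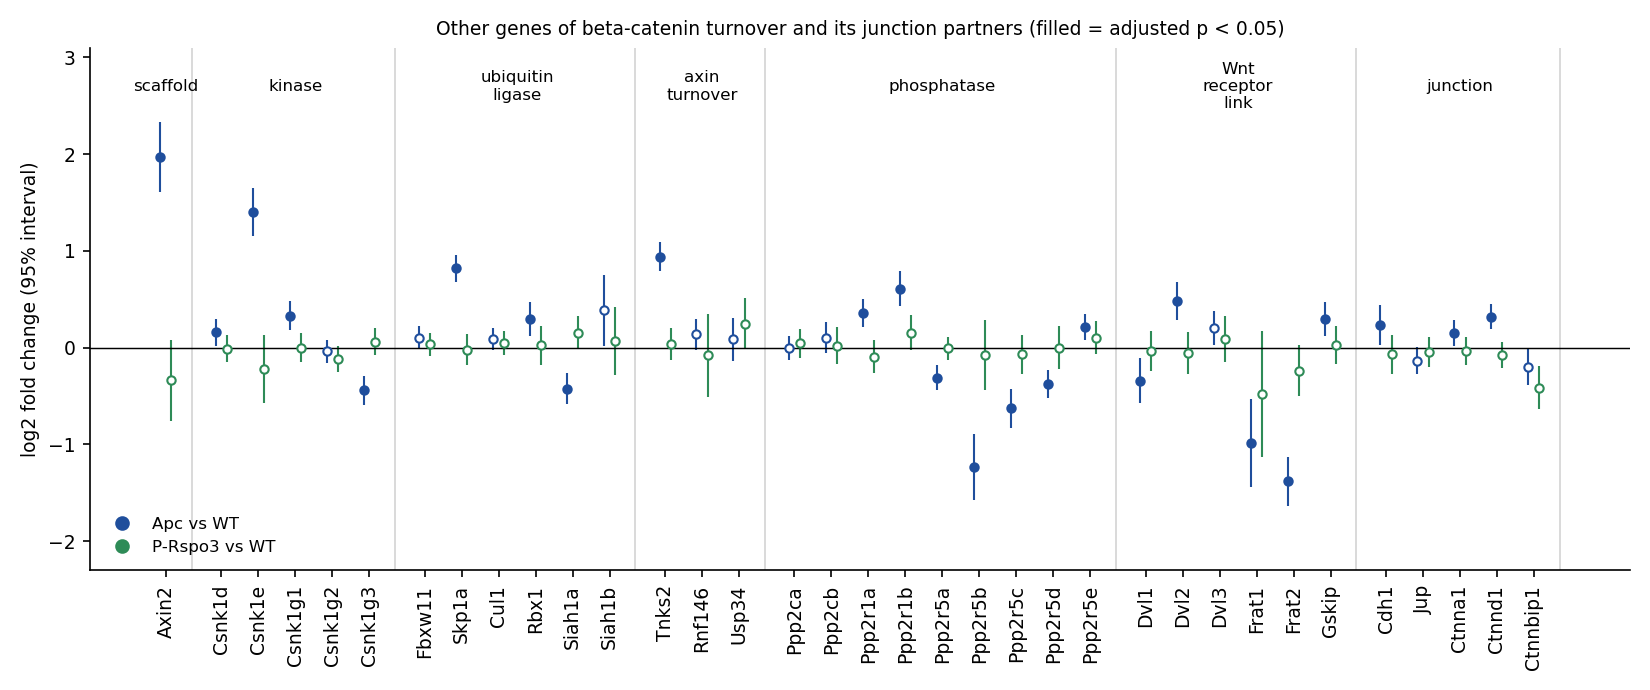
Log2 fold change with TMM (vertical axis, 95% interval) of genes of beta-catenin turnover and its partners, grouped by role, in Apc against WT (blue) and P-Rspo3 against WT (green); filled points had an adjusted p under 0.05. Axin2 (1.97) and Csnk1e (1.40) were the highest and Frat2 (-1.38) and Ppp2r5b (-1.23) the lowest in Apc. No gene shown passed in P-Rspo3, where 0.00625% of all genes tested were called.

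Over the 13 grouped libraries, the genes whose log2 normalized counts were most like those of Apc, among 12176 genes whose FPKM averaged 1 or more, were B230219D22Rik (r = 0.98), Amer1 (r = 0.98) and Rabgap1 (r = 0.98). Among the members, Tnks (0.96), Btrc (0.80) and Ctnnb1 (0.79) followed Apc, and Gsk3a went against it (-0.88) on this TMM scale. Gsk3b (0.285), Axin1 (-0.07) and Csnk1a1 (-0.08) had weaker correlations with Apc. In FPKM and with total counts, Gsk3a overlapped between WT and Apc. The genes most like Ctnnb1 were Arl3 (0.97), Rab34 (0.97) and Limd2 (0.97). The libraries fall into groups, so these correlations are a description of which genes shared the step between Apc and the rest, and they share depth and normalization.

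To show the sequence before the start of members whose transcripts went in opposite directions, the RefSeq promoter windows (GRCm38.p6, 250 bases before to 50 after the start) were searched for letters bound by the TCF/LEF partners of beta-catenin, CTTTGAA or CTTTGAT on either strand. Windows were given for Gsk3a, Gsk3b, Ctnnb1 and Apc2, 8 in all. A match was found in 1 of them, that of Gsk3a, at position -158 from the start, and in 8.65% of 32851 windows of all genes. The 250 bases before the start of Gsk3a (chr7:25237852-25238101, minus strand), which was lower in Apc with TMM, are given with the match in capitals, beside those of Ctnnb1 (chr9:120933150-120933399, plus strand), which was higher and held none.
Gsk3a: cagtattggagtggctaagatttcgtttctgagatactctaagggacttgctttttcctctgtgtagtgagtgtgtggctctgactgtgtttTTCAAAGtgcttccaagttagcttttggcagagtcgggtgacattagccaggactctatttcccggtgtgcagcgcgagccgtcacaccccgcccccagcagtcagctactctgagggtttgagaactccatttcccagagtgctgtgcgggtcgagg
Ctnnb1: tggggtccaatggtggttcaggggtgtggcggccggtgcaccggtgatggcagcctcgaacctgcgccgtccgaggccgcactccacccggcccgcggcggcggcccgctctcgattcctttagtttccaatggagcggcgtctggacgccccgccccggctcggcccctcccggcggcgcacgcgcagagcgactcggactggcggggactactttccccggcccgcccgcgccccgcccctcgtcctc
A match is a description of these letters only, and no binding was measured.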

How the data were processed

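RNA sequencing of 15 organoid libraries was used, of which 13 were placed in a group (5 WT, 4 Apc, 4 P-Rspo3). Of the other 2, 1 has a title that conflicts with its genotype. The other has a title that names no group, though its genotype is given as dox-naive, as for 1 WT library. Both were left out of the groups and entered alternatives only. STAR was used by the authors for alignment to GRCm38, and the deposited files hold raw whole-number counts for each gene from HTSeq 0.6.0 and FPKM from Cufflinks 2.2.1. The strand setting and annotation release are not given in the sources used here. The labels name no batch. Total counts were 28902729 to 35528495 in the grouped libraries and 27466904 and 28234329 in the other two, and at most 3 counts was read as not detectable, which covers counting error only.

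Symbols and coordinates came from the GENCODE annotation of GRCm38, and promoters from RefSeq (GRCm38.p6). Genes with FPKM of at least 0.1 in as many libraries as the smaller group were tested in separate fits with edgeR 4.0.16. The fits used TMM, glmQLFit and glmQLFTest at their defaults (R 4.3.3). They were also run on simulated data, with 50 genes changed at each fold. At 1.25-fold, 3 were recovered in Apc against WT, 0 in P-Rspo3 against WT and 2 in Apc against P-Rspo3. In the same order, 28, 21 and 20 were recovered at 1.5-fold and 43, 43 and 44 at 2-fold. Small differences can therefore go uncalled. The changed genes were drawn from those with higher counts. They were a far smaller share than the 59.1% called in Apc against WT and the 56.4% in Apc against P-Rspo3. The recovery given may therefore not hold for the comparisons of Apc. SE is the log2FC over the root of its F. The alternatives were DESeq2 1.42.0 and its size factors, the newer quasi-likelihood form, other filters, all groups in 1 fit, limma 3.58.1 on log2(FPKM + 1) and log2(FPKM + 0.1), each library left out, the 2 ungrouped libraries placed by genotype, or 1 of them by title, a fold threshold, a replicate block, WT of the flox lines only and the origin of the line as a term. Scaling by total counts, also for the wider lists, was added after the data were seen. Named genes were the members, the genes of fixed lists, related copies, and the 3 genes most correlated with Apc and with Ctnnb1. The members and lists were chosen with earlier results of these data known.

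Same-numbered WT and Apc libraries carry the same line number in their titles, on which alone the pairing rests. After each group mean was taken off, the median correlation of same-numbered libraries was 0.102 (-0.0963 to 0.234, 4 pairs), against -0.0419 for the 12 other pairs.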

Additional observations from a re-analysis of the deposited data

Results flagged for a closer look

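In groups of 4 or 5 libraries, a library was singled out where its gap to the nearest other was large against the range of its group (Dixon's 95% critical value). Of 30 groups examined over the 10 members, 5 were singled out, where chance gives about 1 in 20. Apc in WT line 6 had an FPKM of 22.3, against 11.6 to 13.3 in the other WT libraries. Amer1 in WT line 6 had 2.55, against 1.79 to 1.99. Ctnnb1 in P-Rspo3 library 15d had 309, against 282 to 284 in the others of its group. In TMM-normalized counts scaled as CPM it was not apart, at 1000.4 against 1003.3 to 1050.5. Apc2 in WT line 5 had an FPKM of 0.0811, against 0 to 0.00958, but only 1 count, so the value and the count do not go together. Apc2 in P-Rspo3 library M had 0.00502 from 2 counts, against 0 in the others. None of these values decides a call in the report: without WT line 6, Apc (log2FC 0.77, edgeR's quasi-likelihood test, adjusted p = 3.11e-06) and Amer1 (log2FC 1.22, edgeR's quasi-likelihood test, adjusted p = 1.28e-06) were still called higher in Apc.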

How the results depend on the processing

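Amer1, Apc, Tnks, Btrc and Ctnnb1 were called higher in Apc than in WT, and than in P-Rspo3, under every alternative run except the 2-fold threshold on the TMM fit, which left 1 member, Amer1, higher and 0 lower in each comparison. No member was called in P-Rspo3 against WT under any. Over the alternatives the log2FC in Apc against WT was 1.09 to 1.44 for Amer1, 0.65 to 1.06 for Apc, 0.59 to 0.93 for Tnks, 0.27 to 0.61 for Btrc and 0.26 to 0.62 for Ctnnb1. The replicate block kept these 5 calls and that of Gsk3a, changed no call, and turned Csnk1a1 to -0.007, as did WT of the flox lines only (-0.007).

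Scaling decided the rest. With total counts, 0 members were lower in Apc than in WT or than in P-Rspo3, and 8 were higher than in P-Rspo3. With limma on log2(FPKM + 1) and on log2(FPKM + 0.1), 0 were lower in either comparison. In Apc against WT, Gsk3a became 0.008 with total counts and 0.001 in both limma fits, Axin1 0.22 with total counts and 0.228 and 0.235 in the limma fits, and Gsk3b 0.28, 0.21 and 0.22. Csnk1a1 passed the test there at 0.30 to 0.32, and Gsk3b with total counts and with log2(FPKM + 0.1). Gsk3b was also 0.01 with all 3 groups in 1 fit and 0.002 with the 2 ungrouped libraries placed by genotype. In P-Rspo3 against WT, Axin1 became 0.16 and 0.17 in the limma fits. Gsk3b became 0.01 with total counts, 0.11 and 0.12 in the limma fits and 0.10 with the origin of the line as a term, where Ctnnb1 became 0.001. In Apc against P-Rspo3, total counts gave 0.23 for Axin1, 0.23 for Csnk1a1 and 0.062 for Gsk3a. The limma fits there gave 0.068 and 0.070 for Axin1, 0.24 and 0.25 for Csnk1a1, and 0.058 and 0.060 for Gsk3a. Csnk1a1 and Axin1 passed the test there with total counts, as did Gsk3b, and Csnk1a1 in the limma fits.

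Leaving out each library in turn gave ranges across 0 for values near it. In Apc against WT these were -0.013 to 0.046 for Csnk1a1 and -0.062 to 0.021 for Gsk3b. In P-Rspo3 against WT they were -0.080 to 0.028 for Axin1 and -0.042 to 0.064 for Gsk3b. In Apc against P-Rspo3 they were -0.053 to 0.005 for Axin1, -0.046 to 0.007 for Csnk1a1 and -0.059 to 0.044 for Gsk3b, and the number of members lower was 0 or 1, being 0 without Apc line 5 or line 6. Depth limits Apc2, which had at most 7 counts in a grouped library.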

Other observations

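The 2 libraries left without a group are given as values. The library titled LIPO, a title that names no group, with its genotype given as dox-naive, had FPKM of 12.4 for Apc, 1.87 for Amer1, 5.96 for Tnks, 1.58 for Btrc, 36.2 for Gsk3a and 278 for Ctnnb1, and Rspo3 was at 0. The library titled NAIVE_F, whose genotype is given as Ptprk-Rspo3 against its title, had 13.7 for Apc, 1.78 for Amer1, 6.44 for Tnks, 1.66 for Btrc, 41.8 for Gsk3a and 280 for Ctnnb1, and Rspo3 was at 8.54. Axin2 had 24.4 and 20.2 FPKM in the same order. For Apc, Amer1, Tnks, Btrc and Ctnnb1, both libraries lay below all 4 Apc libraries.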
